A study of Mus musculus with 12 samples.

Results

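The genes described here are those that carry dietary fat and cholesterol into the absorptive cells of the small intestine and pack it into chylomicrons. The 10 genes (Cd36, Npc1l1, Fabp1, Fabp2, Mogat2, Dgat1, Dgat2, Mttp, Apob and Apoa4) were taken by name from the 55416 genes listed in each of 2 tables of TPM values, a measure of transcript abundance, and all 10 were found once in both. TPM is taken per transcript length and scaled so that each library has nearly the same sum. The samples were duodenum and liver of male C57BL6/J mice, 8 weeks old at the start, that received corticosterone (CORT, 40 mg/kg) or vehicle (Veh, a mixture of DMSO, Tween-80 and sterile water) under the skin every day for 8 weeks. The labels call the gut samples intestine and the study's methods name the duodenum. Each of the 4 groups had 3 libraries, labelled as biological replicates, each made from a piece of whole tissue, so that all cell types of the organ contribute. The comparison of CORT with Veh addressed how the fat absorption genes stood in the gut, and then in the liver, of mice kept on a high level of the main glucocorticoid of rodents.

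Fat digestion releases fatty acids and monoacylglycerol in the gut lumen, and enterocytes take these up, bind the fatty acids to small carrier proteins and rebuild triglyceride at the endoplasmic reticulum. The triglyceride is then loaded onto apolipoprotein B, giving a chylomicron that leaves through the lymph. Hepatocytes use many of the same proteins to build very low density lipoprotein from fat that is made in the liver or returns to it.

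Among these genes the clearest differences in the duodenum were in Dgat2, which makes triglyceride from diacylglycerol, and Apob, the structural protein of the chylomicron. Dgat2 rose from 290.1 ± 56.0 to 1108 ± 144 TPM and Apob from 272 ± 93.1 to 829 ± 169 TPM (SD, n = 3). They were the 2 of 10 genes called at an adjusted p of at most 0.05 and a fold change over 1.5, where 2.15% of the 13607 genes tested in the duodenum were called and 1.23% were called higher (limma, Benjamini-Hochberg over all genes tested). Without the adjustment, 7 of the 10 passed a p of 0.05 and that fold, where 10.3% of all genes did. The 10 genes and the lists used below were chosen with earlier results of these data known. The shares of all genes set beside their counts are thus background and no test of the set. In the liver the 2 of 8 tested genes called were different ones, Cd36 and Apoa4, both higher, with 6.92% of 11699 genes called and 4.91% called higher. Dgat1, which catalyses the same reaction as Dgat2, was not called in either tissue, and Mogat2, which supplies its substrate, was not called in the duodenum and was too low in the liver to be tested.

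Cell type markers and libraries that stood apart were looked at first. Fkbp5, a glucocorticoid target used as a check of the treatment, was 8.68 to 23.3 TPM in Veh and 252 to 379 TPM in CORT duodenum, and 7.14 to 19.5 against 221 to 273 TPM in liver. Tsc22d3, another such target, had log2 differences of 2.01 and 1.92 (limma adjusted p = 0.0185 and 0.0623). In the duodenum, 28 pancreatic acinar genes summed to 4.21% of all TPM in Veh replicate 2 and 3.35% in Veh replicate 3, against 0.0692% in Veh replicate 1 and 0.0708 to 0.0968% in CORT. With these genes and Zg16 removed, 29 in all, and the libraries rescaled, the log2 changes of Dgat2 and Apob were 1.90 and 1.60 (limma adjusted p = 0.00599 and 0.0304). The rescaling moves all remaining genes of a library by the same factor, so it removes no other difference of those libraries. Set against Veh replicate 1 alone, the differences were 1.64 for Dgat2 and 1.11 for Apob (adjusted p = 0.175 and 0.372), with the lone library assumed to vary like the CORT group. Markers of enterocytes, the cells that hold this pathway, summed to 8975 to 12388 TPM in Veh and 8057 to 10375 TPM in CORT duodenum, and 0 of 14 were called by limma (2 had an unadjusted p under 0.05). Their mean log2 level was 8.95 in Veh replicate 1 and 8.46 and 8.51 in Veh replicates 2 and 3. In CORT replicates 1 to 3 it was 8.67, 8.53 and 8.77. The median log2 change was -0.01 for those 14 genes, 0.82 for the 10 fat genes and -0.01 for all genes tested. These medians are no test of the part of enterocyte content in the fat gene differences. Epithelial markers were likewise at 9467 to 11733 TPM in Veh and 9002 to 11224 TPM in CORT. All 8 smooth muscle markers were lower in CORT duodenum (median log2 difference -0.64, summed levels 553 to 1049 TPM in Veh and 397 to 595 TPM in CORT), with 0 of 8 called by limma (3 at an unadjusted p under 0.05), and their part in the results was not tested. In a bulk sample, more cells of a type and more RNA per cell cannot be told apart.

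**Figure D1:**
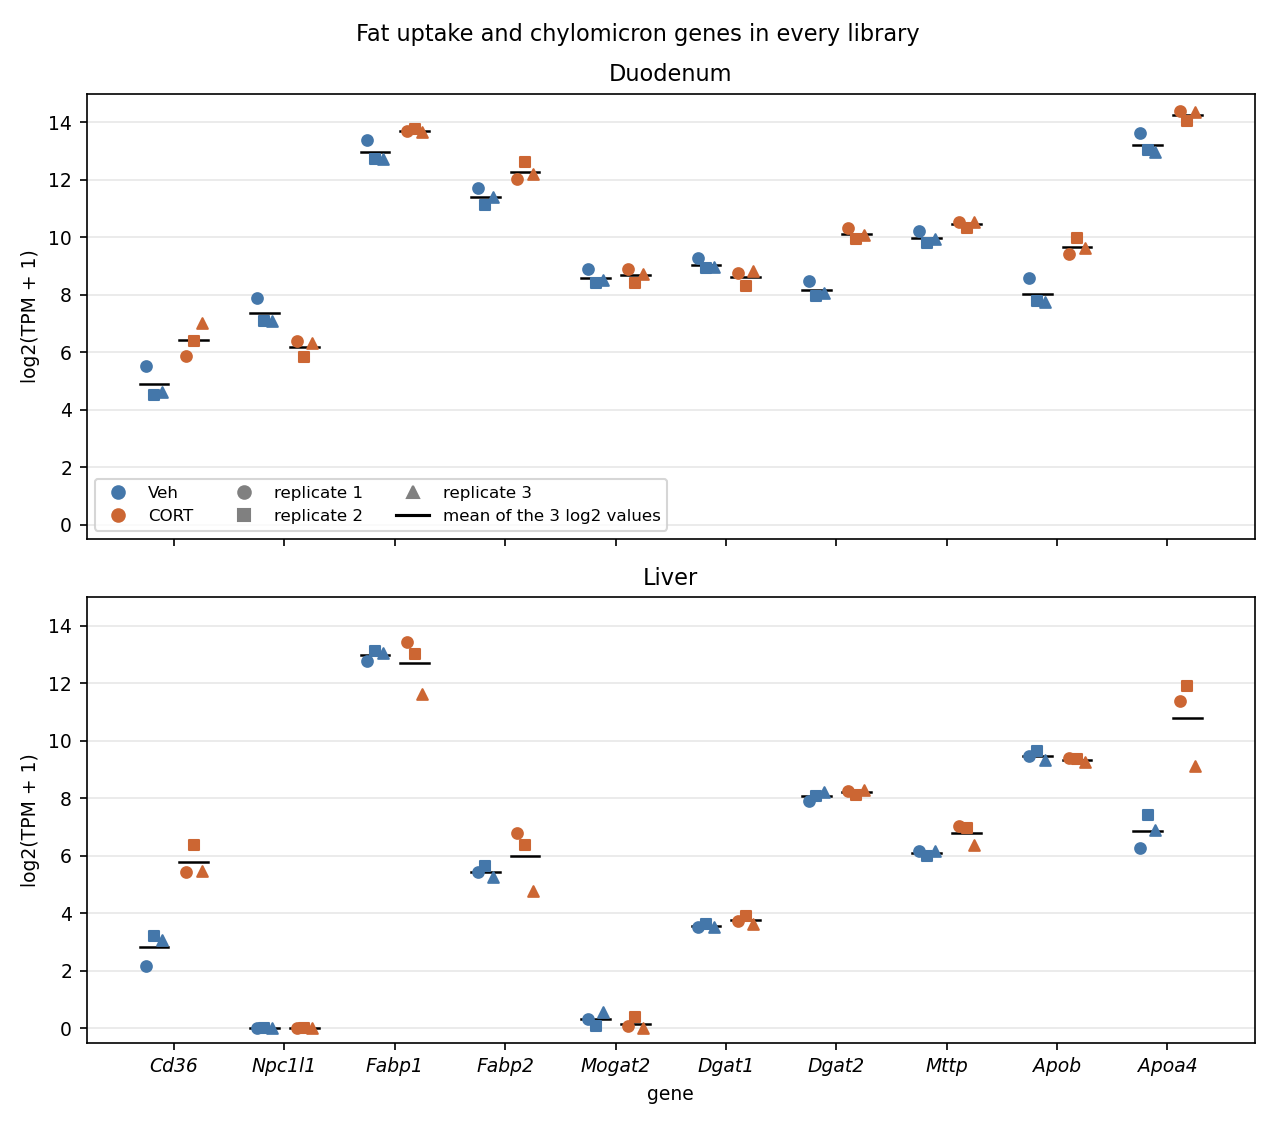
TPM of the 10 genes (log axis) in each duodenum and liver library, with Veh and CORT in separate colours, a symbol for each replicate and a line at the mean of the 3 log2 values. In the duodenum the CORT and Veh points of Dgat2 lie fully apart and those of Mogat2 overlap, and in the liver Cd36 and Apoa4 lie fully apart while Dgat2 and Apob overlap.

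Uptake at the brush border is represented by Cd36, a fatty acid receptor and transporter, and Npc1l1, the sterol transporter that ezetimibe blocks. Cd36 (ENSMUSG00000002944) in the duodenum was 45.2, 21.9 and 23.3 TPM in Veh replicates 1 to 3 and 57.6, 82.2 and 129.7 TPM in CORT. Each CORT library lay above each Veh library, though the lowest CORT and the highest Veh library were close. The log2 difference was 1.54 (SE 0.37, 95% interval 0.68 to 2.41), and the adjusted p of 0.0879 missed the threshold (limma).

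Npc1l1 (ENSMUSG00000020447) was the gene of the set with the lowest CORT-to-Veh ratio in the duodenum. It was 239, 134 and 134 TPM in Veh and 83.2, 56.1 and 79.1 TPM in CORT. All CORT libraries lay below all Veh libraries, and the log2 difference was -1.17 (SE 0.27, 95% interval -1.80 to -0.54, limma adjusted p = 0.0792). In Veh duodenum Npc1l1 stood above Cd36 without overlap, whereas in CORT the 2 genes overlapped, Cd36 at 89.8 ± 36.6 and Npc1l1 at 72.8 ± 14.6 TPM (SD, n = 3).

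The fatty acid carriers Fabp1, the liver-type protein, and Fabp2, the intestinal type, were among the most abundant messages of the tissue. Fabp1 (ENSMUSG00000054422) was 10617, 6819.8 and 6814 TPM in Veh duodenum and 13242, 13899.9 and 13051 TPM in CORT. The CORT libraries were all higher and closer together than the Veh libraries, at a log2 difference of 0.76 (SE 0.21, 95% interval 0.26 to 1.26, limma adjusted p = 0.127). Fabp2 (ENSMUSG00000023057) was 3360, 2204 and 2707 TPM in Veh and 4153, 6356 and 4683 TPM in CORT, again without overlap, at a log2 difference of 0.87 (SE 0.23, 95% interval 0.33 to 1.42, limma adjusted p = 0.107). Neither carrier passed the threshold, and their ratio within a library was 2.52 to 3.16 in Veh and 2.19 to 3.19 in CORT.

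Triglyceride is rebuilt in consecutive steps, first by Mogat2, which adds a fatty acid to monoacylglycerol, and then by Dgat1 or Dgat2, which are unrelated in sequence family and add the last fatty acid. Mogat2 (ENSMUSG00000052396) was 471, 339 and 361 TPM in Veh and 478, 341 and 421 TPM in CORT duodenum. The groups overlapped almost fully, and the log2 difference of 0.08 had a 95% interval from -0.36 to 0.53 (limma adjusted p = 0.837). Dgat1 (ENSMUSG00000022555) was 616, 483 and 499 TPM in Veh and 431, 316 and 456 TPM in CORT. The CORT libraries were all below the Veh libraries, at a log2 difference of -0.42 (SE 0.19, 95% interval -0.86 to 0.02, limma adjusted p = 0.280), which missed the threshold.

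Dgat2 (ENSMUSG00000030747) differed from both. It was 354, 248 and 268 TPM in Veh and 1265, 982 and 1078 TPM in CORT, so that the lowest CORT library was well above the highest Veh library. The mean TPM was 3.82 times as high in CORT, and the log2 difference was 1.94 (SE 0.18, 95% interval 1.51 to 2.36, limma adjusted p = 0.00621). Dgat2 was also called after leaving out any of the 6 libraries, with log2 differences from 1.84 to 2.09.

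The messages of the 2 last-step enzymes stood in opposite order in Veh and CORT duodenum. In Veh there was less Dgat2 than Dgat1 in each library, with a ratio of 0.514 to 0.574, and in CORT there was more, with a ratio of 2.36 to 3.11. Dgat2 relative to Mogat2 went from 0.732 to 0.752 in Veh to 2.56 to 2.88 in CORT. These ratios are taken within a library, so a shift of the library's scale cancels. The exact two-sided permutation p was 0.1 for both, the smallest that 3 against 3 libraries allow, and 0.129 after adjustment over the 9 ratios computed. In the liver, Dgat2 exceeded Dgat1 in both groups, by a ratio of 22.9 to 28.0 in Veh and 19.7 to 27.0 in CORT, with overlap (exact permutation p = 0.8, 0.8 adjusted).

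**Figure D2:**
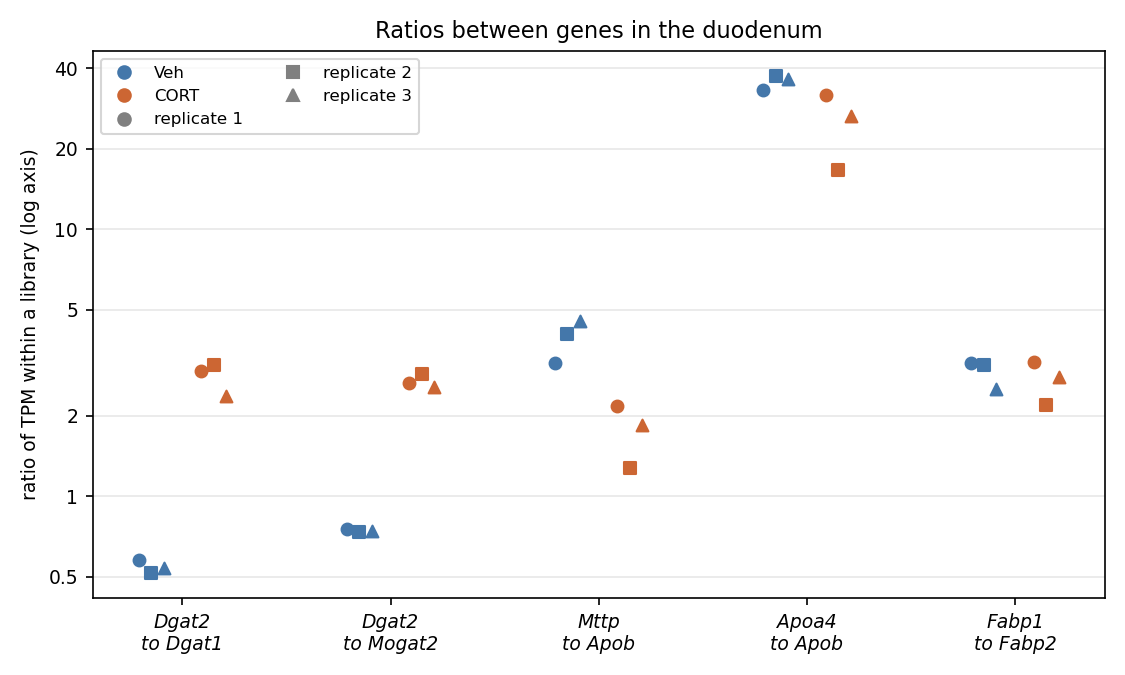
Ratios of TPM between 2 genes within each duodenum library (log axis), with Veh and CORT in separate colours and a symbol for each replicate. Dgat2 to Dgat1 lies between 0.514 and 0.574 in Veh and between 2.36 and 3.11 in CORT, and Fabp1 to Fabp2 overlaps between the groups.

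Loading and export are carried by Mttp, the transfer protein that moves triglyceride onto apolipoprotein B, by Apob itself, and by Apoa4, an apolipoprotein that coats nascent chylomicrons. Mttp (ENSMUSG00000028158) was 1201, 893 and 979.9 TPM in Veh and 1475, 1286 and 1471 TPM in CORT duodenum. The groups did not overlap, but the log2 difference was 0.47 (SE 0.16, 95% interval 0.10 to 0.84) with a limma adjusted p of 0.178. Apob (ENSMUSG00000020609) was 379, 221 and 216 TPM in Veh and 679, 1012 and 797 TPM in CORT.

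All CORT libraries held more Apob than all Veh libraries, and the mean was 3.05 times as high. The log2 difference was 1.64 (SE 0.26, 95% interval 1.02 to 2.25, limma adjusted p = 0.0325). This call was less firm than that of Dgat2, since the adjusted p was 0.102 without Veh replicate 2, 0.124 without Veh replicate 3, 0.0717 without CORT replicate 1, 0.0909 without CORT replicate 2 and 0.0865 without CORT replicate 3, with log2 differences of 1.48 to 1.77. The ratio of Mttp to Apob was 3.16 to 4.54 in Veh and 1.27 to 2.17 in CORT (exact permutation p = 0.1, 0.129 adjusted).

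Apoa4 (ENSMUSG00000032080) was the most abundant of the 10 genes in the duodenum, with 12570.4, 8298 and 7906 TPM in Veh and 21545, 16882 and 21085 TPM in CORT. By mean TPM it was the gene of rank 9 in Veh and of rank 3 in CORT duodenum among all genes listed. The CORT libraries were all higher, at 2.07 times the Veh mean and a log2 difference of 1.07 (SE 0.23, 95% interval 0.53 to 1.62, limma adjusted p = 0.0703), which did not pass the threshold with all libraries and passed without Veh replicate 1 (1.28, adjusted p = 0.0453). Veh replicate 1 was the Veh library with few acinar messages, and set against it alone the log2 difference of Apoa4 was 0.65. Apoa4 relative to Apob was 33.1 to 37.6 in Veh and 16.7 to 31.7 in CORT (exact permutation p = 0.1, 0.129 adjusted).

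Set side by side, CORT and Veh libraries were fully apart for 9 of the 10 genes in the duodenum and for 26.4% of all genes tested there. Of these, 7 were higher in all CORT libraries, where 12.2% of all genes were, and 2 were lower, where 14.3% of all genes were. Together the 10 genes took 3.00, 1.97 and 2.00% of all TPM in Veh replicates 1 to 3 and 4.37, 4.15 and 4.35% in CORT. Most of that sum was Apoa4, Fabp1 and Fabp2, so it says little of the genes at lower level. Veh replicate 1 held the highest level of each of the 10 genes among the Veh libraries, and it was also the Veh library with few acinar messages. The part of the acinar messages in these differences beyond the removal described above was not tested.

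In the liver, Cd36 had the lowest adjusted p of the set. It was 3.56, 8.40 and 7.37 TPM in Veh and 42.6, 82.4 and 43.9 TPM in CORT. The groups lay far apart, with a mean 8.74 times as high and a log2 difference of 2.94 (SE 0.35, 95% interval 2.11 to 3.77, limma adjusted p = 0.00693), and the call held after leaving out any of the 6 libraries. Cd36 is also made by endothelial cells, macrophages and adipocytes, and in these libraries the 10 endothelial markers summed to 20.6 to 54.6 TPM in Veh and 51.6 to 64.8 TPM in CORT, with Pecam1 as the 1 of 10 called (log2 difference 1.52, limma adjusted p = 0.0370). Of these 10 markers, 9 were higher in CORT and 6 had an unadjusted p under 0.05, and their median log2 difference was 0.77 beside 0.08 for all genes. The 10 macrophage markers summed to 165 to 205 TPM in Veh and to 150.2, 238 and 416 TPM in CORT, with 0 of 10 called by limma (1 at an unadjusted p under 0.05), 9 of 10 higher and a median of 0.59. The part of these cells in the Cd36 difference was not tested. Adipocyte markers were near 0 in both groups, at 1.98 to 2.62 TPM in Veh and 0.85 to 2.28 TPM in CORT, with 3 or 4 of them listed at 0 in each library.

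Apoa4 had the largest fold of the set in the liver. It was 76.2, 172 and 117 TPM in Veh and 2691, 3840.0 and 555 TPM in CORT. The CORT libraries were all higher but differed widely among themselves, CORT replicate 3 being the lowest. The mean was 19.4 times as high, with a log2 difference of 3.94 (SE 0.70, 95% interval 2.28 to 5.60, limma adjusted p = 0.0239). The call was lost on leaving out Veh replicate 1 (adjusted p = 0.0780), Veh replicate 3 (0.0802), CORT replicate 1 (0.0820) or CORT replicate 2 (0.0556), with log2 differences from 3.39 to 3.95, and stood without Veh replicate 2 or CORT replicate 3 (4.23 and 4.79).

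The upstream sequences of Apoa4 and Apob are shown because they are the apolipoprotein genes called, each in a different tissue. RefSeq promoters (GRCm38.p6) were matched for 7 of the 10 genes, and the 250 bases before the annotated start are given, 5′ to 3′ on the gene's strand, with matches to the searched motifs in capitals. The files' own build is GRCm39, so these coordinates belong to the reference table alone. The Apoa4 stretch lies at chr9:46240594-46240843 and the Apob stretch at chr12:7977427-7977676, both on the plus strand.
Apoa4: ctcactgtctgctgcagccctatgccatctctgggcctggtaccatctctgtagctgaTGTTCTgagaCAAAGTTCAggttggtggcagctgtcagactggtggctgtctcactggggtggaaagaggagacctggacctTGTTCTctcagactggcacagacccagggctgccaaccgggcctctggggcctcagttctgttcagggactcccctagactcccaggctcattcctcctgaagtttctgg
Apob: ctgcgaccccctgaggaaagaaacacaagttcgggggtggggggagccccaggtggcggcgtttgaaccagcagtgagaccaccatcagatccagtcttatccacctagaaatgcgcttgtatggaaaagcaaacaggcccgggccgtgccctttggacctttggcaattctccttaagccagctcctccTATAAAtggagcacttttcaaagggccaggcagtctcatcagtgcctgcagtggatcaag
The motifs searched on both strands, over 250 bases before and 50 after the start, were TATAAA, the TATA box, TGTTCT, the core hexamer bound by the glucocorticoid receptor, and CAAAGTTCA, CAAAGGTCA and CAAAGTCCA, forms of the site bound by Hnf4a, a regulator of apolipoprotein genes. Apoa4 held CAAAGTTCA 182 bases before its start, a string found in 0.39% of 32851 promoters, and TGTTCT at 192 and 110 bases, a string found in 19% of them. Apob held TATAAA 60 bases before its start, as 13.6% of promoters did somewhere in the window. CAAAGGTCA and CAAAGTCCA, held by 0.478 and 0.475% of promoters, were in 0 of the 7, and TGTTCT was in 3 of them (Apoa4, Mttp and Fabp1). These are exact matches of letters in the reference sequence. Other forms of the site bound by Hnf4a were not searched, so a promoter without capitals may still hold one.

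Mttp in the liver was 70.4, 62.8 and 71.9 TPM in Veh and 129.6, 125 and 81.5 TPM in CORT. The groups did not overlap, with CORT replicate 3 nearest to Veh, and the log2 difference was 0.68 (SE 0.20, 95% interval 0.21 to 1.14, limma adjusted p = 0.0869). Fabp2 was 42.5, 49.8 and 37.1 TPM in Veh and 111, 82.3 and 26.3 TPM in CORT liver, and Fabp1 was 6958, 8922 and 8526 TPM in Veh and 10991, 8272 and 3212 TPM in CORT. Both carriers overlapped between the groups, and CORT replicate 3 held the lowest level of each among all 6 liver libraries. Without that library, Fabp2 and Mttp were called, at log2 differences of 1.14 and 0.89 (adjusted p = 0.0325 and 0.0226), and Fabp1 turned from -0.29 to 0.24 without being called. The ratio of Fabp1 to Fabp2 within a liver library was 164 to 230 in Veh and 98.8 to 122 in CORT, CORT replicate 3 included (exact permutation p = 0.1, 0.129 adjusted).

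Dgat2 and Apob, the genes called in the duodenum, overlapped between the groups in the liver. Dgat2 was 243, 273 and 295 TPM in Veh and 308, 279.9 and 311 TPM in CORT, a log2 difference of 0.15 (limma adjusted p = 0.494). Apob was 708, 807 and 639.6 TPM in Veh and 678, 661 and 611 TPM in CORT, a log2 difference of -0.14 (limma adjusted p = 0.556). Dgat1 was low in the liver, from 10.55 to 11.46 TPM in Veh and 11.54 to 14.2 TPM in CORT. Mogat2 was at most 0.49 TPM and Npc1l1 at most 0.01 TPM in any liver library, so neither was tested there. Of the 8 genes tested in the liver, the groups did not overlap for 4 (Cd36, Apoa4, Mttp and Dgat1, all higher in CORT), where they did not for 32.2% of all genes. All CORT libraries lay above all Veh libraries for 20.6% of all genes tested there. Npc1l1 was listed at 0 in all 3 Veh livers.

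Whether the response differed between the tissues was tested directly in 1 fit over all 12 libraries. The difference between the 2 responses passed the threshold for Dgat2, at 1.79 on the log2 scale (SE 0.21, 95% interval 1.33 to 2.25, limma adjusted p = 0.00131), and for Apob, at 1.78 (SE 0.30, 95% interval 1.11 to 2.44, limma adjusted p = 0.0102), both larger in the duodenum. These were the only 2 to pass of the 8 genes that were also tested in the liver, and 3.61% of 14806 genes passed. For Apoa4 the duodenum response minus the liver response was -2.87 (95% interval -4.67 to -1.07, limma adjusted p = 0.0874), and for Cd36 -1.40 (-2.64 to -0.16, 0.217), and neither passed with all libraries. Without liver CORT replicate 3, Apoa4 passed at -3.71 (adjusted p = 0.00209). For Fabp1, Fabp2, Dgat1 and Mttp the adjusted p was 0.159 to 0.807. Npc1l1 and Mogat2 entered this fit only through the duodenum, and with the liver at or near 0 their difference restates the duodenum response, so it is not read here. This fit over both tissues was not run without duodenum Veh replicates 2 and 3 together, the libraries with many acinar messages. The labels do not say whether duodenum and liver libraries of the same number came from the same mouse.

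The levels in vehicle-treated mice were compared between the organs. Of the 10 genes, 8 differed between Veh duodenum and Veh liver, where 65.6% of 14806 tested genes did. Apoa4, Fabp2, Dgat1, Mttp and Cd36 were higher in the duodenum, with log2 differences of 6.33, 5.95, 5.48, 3.88 and 2.05. Mogat2 and Npc1l1 were also called higher, but they entered the test only through the duodenum and were at most 0.49 TPM and listed at 0 in Veh liver, so that they had to differ, and no fold is given for them. Apob was lower in the duodenum, at -1.44. Fabp1 and Dgat2 were not called, at -0.03 and 0.09, but the median of all genes in this comparison was 0.68. With median-ratio scaling, which brought that median to 0.03, Dgat2 was called lower in the duodenum at -0.71 (limma adjusted p = 0.00282) and Fabp1 stood at -0.84 (adjusted p = 0.0617). The hepatocyte markers, as a check of the tissue, were 10.2 to 12.97% of TPM in the liver and 0.0218 to 0.0256% in the duodenum, over Veh and CORT libraries together.

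The order of the levels also changed in the duodenum. In Veh it ran Apoa4, Fabp1, Fabp2, Mttp, Dgat1, Mogat2, Dgat2, Apob, Npc1l1 and Cd36, where Apoa4 and Fabp1, Mogat2 and Dgat2, Dgat2 and Apob, and Apob and Npc1l1 overlapped over the 3 libraries. In CORT it ran Apoa4, Fabp1, Fabp2, Mttp, Dgat2, Apob, Mogat2, Dgat1, Cd36 and Npc1l1, where Dgat2 and Apob, Mogat2 and Dgat1, and Cd36 and Npc1l1 overlapped. Dgat2 thus moved from place 7 to 5 and Dgat1 from 5 to 8. In Veh liver the order was Fabp1, Apob, Dgat2, Apoa4, Mttp, Fabp2, Dgat1, Cd36, Mogat2 and Npc1l1 with no overlap between neighbours, and in CORT liver Apoa4 stood in place 2 and overlapped both Fabp1 and Apob.

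Other genes of the route were read from lists of uptake and activation, sterol handling, triglyceride synthesis, lipid droplets, chylomicron partners, regulators, fat sensing, luminal lipases, related binding proteins and hepatic lipid storage. These lists too were chosen with earlier results of these data known, so the shares of all genes are background only. In the duodenum 3 of 68 tested genes were called, all higher, where 1.23% of all genes were called higher, and the median log2 difference was 0.19 beside -0.01 for all genes. Sar1b, the coat GTPase that chylomicrons need to leave the endoplasmic reticulum, rose from 214 ± 15.6 to 344 ± 7.66 TPM (log2 difference 0.69, limma adjusted p = 0.0392). Ppara, the nuclear receptor that senses fatty acids, rose from 10.9 ± 2.36 to 26.5 ± 4.82 TPM (1.21, 0.0329), and Fabp4, the binding protein best known from adipocytes and macrophages, rose from 12.4 ± 1.79 to 31.9 ± 6.56 TPM (1.28, 0.0272; all SD, n = 3). None of the 68 was called by limma without Veh replicate 2, Veh replicate 3, CORT replicate 2 or CORT replicate 3 (21, 21, 24 and 22 at an unadjusted p under 0.05), and 1 was without CORT replicate 1. Duodenal macrophage markers summed to 157 to 273 TPM in Veh and 205 to 285 TPM in CORT, with 1 of 8 called, Clec4f, a Kupffer cell receptor, which was 0 to 0.15 TPM in Veh and 5.31 to 10.3 TPM in CORT (limma adjusted p = 0.00450), and adipocyte markers summed to 0.07 to 5.78 and 0.53 to 8.94 TPM. The part of those cells in the Fabp4 difference was not tested.

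Several partners in the duodenum had separate groups without passing the threshold. Apoa1, an apolipoprotein of the same gene cluster as Apoa4, was 8173 to 12149 TPM in Veh and 15581 to 21477 TPM in CORT (log2 difference 1.02, limma adjusted p = 0.0752). Apoc2, the cofactor of lipoprotein lipase, had a log2 difference of 0.81 (adjusted p = 0.138). Plin2 and Cidec, which coat lipid droplets, had log2 differences of 0.75 and 0.76 (adjusted p = 0.0764 for both). Pparg and Ppard were lower in all CORT libraries, at -1.12 and -0.74 (adjusted p = 0.0540 and 0.0654). For the lists of uptake and activation, sterol handling, triglyceride synthesis, droplets and hepatic storage, 0 of 7, 0 of 6, 0 of 6, 0 of 6 and 0 of 4 genes were called by limma, with 1, 2, 1, 1 and 2 at an unadjusted p under 0.05. Soat2, which esterifies absorbed cholesterol, was 79.9 to 147 TPM in Veh and 51.0 to 84.5 TPM in CORT (log2 difference -0.65, adjusted p = 0.251). The 6 luminal lipase genes summed to 106, 7066 and 6068 TPM in Veh replicates 1 to 3 and 166 to 370 TPM in CORT, with 0 of 6 called by limma (4 at an unadjusted p under 0.05). These 6 genes are also counted among the acinar genes. Their sums are thus part of the acinar messages of Veh replicates 2 and 3 and no separate observation.

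**Figure D3:**
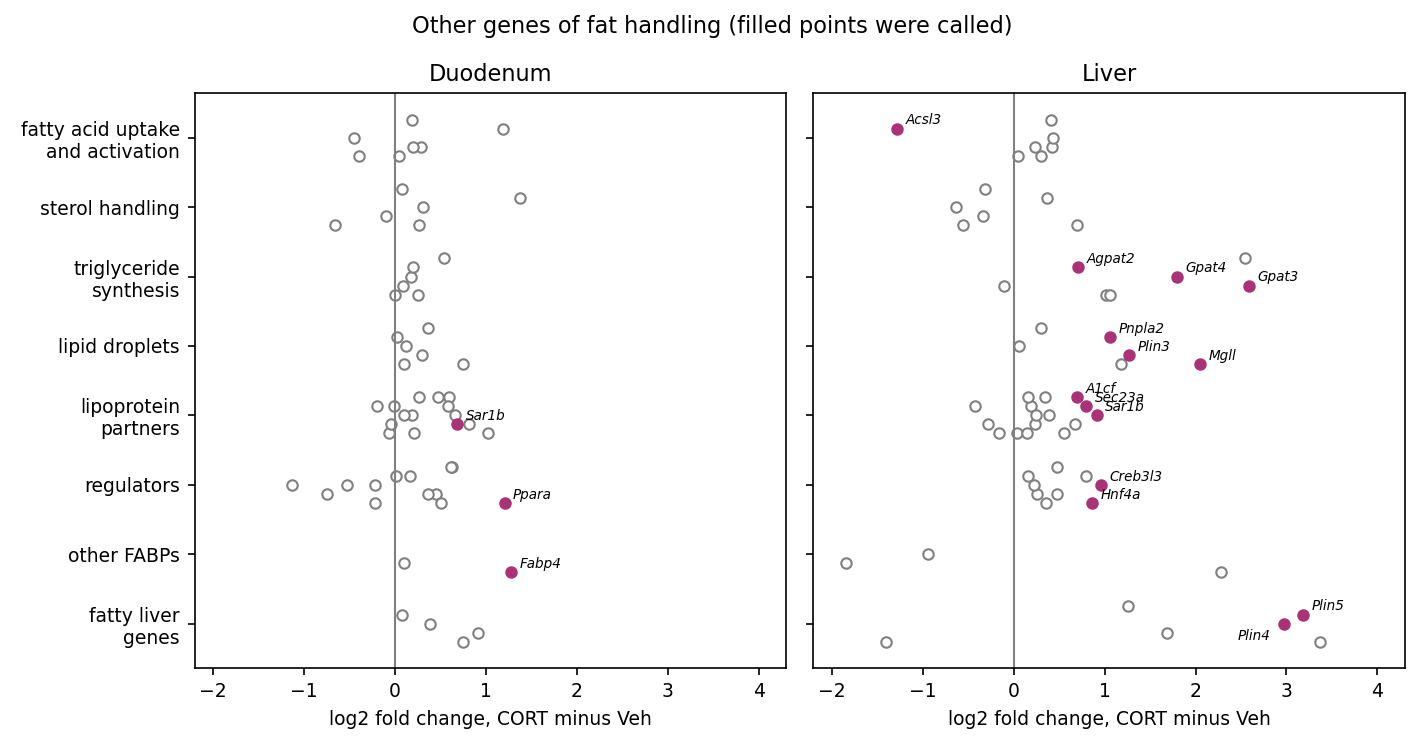
Log2 difference of CORT minus Veh (x axis) for the other genes of fat handling, by list (rows), in duodenum (left) and liver (right), with filled and named points for called genes. The 6 luminal lipases, the fat sensing genes and 1 regulator are not drawn. Sar1b is filled in both tissues, Ppara and Fabp4 in the duodenum, and Plin4 and Plin5 lie farthest to the right of the filled points in the liver.

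In the liver 15 of 62 tested genes of these lists were called, 14 higher and 1 lower, where 4.91% of all genes were called higher and 2.01% lower, with a median log2 difference of 0.42 beside 0.08 for all genes tested. The count of 15 fell to 6 without Veh replicate 1, 6 without Veh replicate 3, 5 without CORT replicate 1 and 9 without CORT replicate 2. Of 7 triglyceride synthesis genes, 3 rose: Gpat3 (log2 difference 2.58, limma adjusted p = 0.00597) and Gpat4 (1.80, 0.0108), which acylate glycerol phosphate, and Agpat2 (0.71, 0.0225), which makes phosphatidic acid. Of 6 droplet genes, Plin3 (1.27, 0.0468), Pnpla2, the first triglyceride lipase (1.06, 0.0488), and Mgll, the monoacylglycerol lipase (2.05, 0.00492), rose. The hepatic storage genes Plin4 (2.97, 0.00143) and Plin5 (3.19, 0.00178) rose, while Cidec, at 3.59 to 3.82 TPM in Veh and 9.41 to 112.8 TPM in CORT, did not pass (3.37, 0.0607). Of 16 chylomicron and lipoprotein partners, Sar1b (0.92, 0.0179), the coat protein Sec23a (0.80, 0.0342) and A1cf, the cofactor of Apob mRNA editing (0.70, 0.0365), rose. The regulators Hnf4a (0.86, 0.0211) and Creb3l3 (0.96, 0.0192) rose, the latter a liver and gut transcription factor of apolipoprotein genes. Acsl3, which activates fatty acids, fell by 1.28 (adjusted p = 0.0436), and in the duodenum it was higher in all CORT libraries without being called (1.19, adjusted p = 0.0667).

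The 3 genes whose pattern was most like each member's were found by the root mean square difference of log2(TPM + 1), centred per gene, over the 12 libraries. For Apoa4 they were Cidec at 0.75, Gpat3 at 0.91 and Cyp4b1 at 1.30, all farther than the nearest gene of any other member. For Dgat2 they were Amhr2 at 0.22, Gm45756 at 0.28 and Nlrp9b at 0.32, and for Apob they were Arl5b at 0.28, H2bc4 at 0.34 and Slc47a1 at 0.36. Npc1l1 was nearest to Slc51a at 0.21, Dgat1 to Slc9a2 at 0.17, Mttp to H2-Bl at 0.18, Mogat2 to Myo15b at 0.23, Fabp1 to Tkfc at 0.34, Fabp2 to Adgrg7 at 0.51 and Cd36 to Serinc3 at 0.56. The 12 libraries span both organs, so a gene must share the difference between the organs as well as the response to be near.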

How the data were processed

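Total RNA of 50 mg of frozen duodenum or liver was made into TruSeq libraries. Per the study's methods the authors used HISAT2 for alignment in orientation mode after trimming, StringTie for assembly, RSEM for abundance and DESeq2 for differential genes. The submitters' processing notes name GRCm39, and tool versions are not given in the sources used here. The authors deposited a TPM value for each gene in each library, without pooling. TPM keeps no depth, so the depth is unknown, no counting interval is given, and precision rests on 3 libraries per group. Where libraries share handling, p-values measure only the spread between them.

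Starting from TPM, log2(TPM + 1) was computed and a gene was tested if its mean reached 1 TPM in the Veh or the CORT group. The response to treatment was estimated separately for duodenum and liver (limma 3.58.1, R 4.3.3; lmFit, then eBayes with its trend option), with no covariate. Tissue contrasts were fitted over all 12 libraries. P-values were adjusted by Benjamini-Hochberg over all genes tested, and a call needed an adjusted p of at most 0.05 and a fold change over 1.5 (for the difference between tissues, the adjusted p alone). The added 1 shrinks the fold change of genes at low TPM. Groups came from the sample labels.

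The members and lists were chosen with earlier results of these data known. All 10 members are named, with the genes of the other lists called in either tissue, up to 3 uncalled genes per list, Fkbp5, Tsc22d3 and the genes nearest in pattern. Pecam1 and Clec4f were named after their values were seen. A gene counted among the regulators is not reported here by name. The fits were tested on simulated data in which 200 genes were given a log2 change of 2. Of these, 181 got a correct call among 13606 duodenum genes, with 9 wrong calls. Among 11699 liver genes 173 did, with 6 wrong calls. The simulated noise was independent between genes, with no shared shift like that of the acinar messages, and smaller changes were not simulated. The alternatives were another pseudocount, no filter, median-ratio scaling, a replicate block, leaving out each library, other thresholds, limma without a trend, removal of acinar genes and centring on epithelial markers. Leaving out Veh replicates 2 and 3 of the duodenum together and centring on enterocyte markers were added after the data were seen.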

Additional observations from a re-analysis of the deposited data

Results flagged for a closer look

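The response to CORT differed between duodenum and liver for 2 of the 8 genes tested in both, by the test of the difference itself. For Dgat2 the duodenum response was larger than the liver response by a log2 difference of 1.79 (limma, adjusted p = 0.00131), with 3 of 3 CORT libraries above all Veh libraries in the duodenum and overlapping groups in the liver. For Apob the difference was 1.78 (limma adjusted p = 0.0102), with the same pattern of overlap. Duodenum Veh replicates 2 and 3, which held many acinar messages, enter both values, and the test was not run without them together. Set against duodenum Veh replicate 1 alone, the duodenum log2 differences were 1.64 for Dgat2 and 1.11 for Apob.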

How the results depend on the processing

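In the duodenum, 2 of the 10 genes were called under pseudocount 0.1, median-ratio scaling, no fold limit, no trend and removal of acinar genes. The count was 1 without the low-value filter, 1 with the replicate block, 7 at an unadjusted p under 0.05, 4 with centring on epithelial markers (Apoa4 and Npc1l1 added) and 4 with centring on enterocyte markers (Cd36 and Npc1l1 added), and 1 to 3 on leaving out 1 library. Without Veh replicates 2 and 3 it was 0 by limma (3 at an unadjusted p under 0.05). The other genes of the route gave 3 calls, which became 5 with pseudocount 0.1, 0 without the filter (26 unadjusted), 1 with the block, 20 unadjusted, 8 and 0 with the epithelial and enterocyte centring (24 unadjusted for the latter), 0 without Veh replicates 2 and 3 (13 unadjusted) and 0 to 7 on leaving out 1 library, 7 being without Veh replicate 1. In the liver, 2 genes became 1 without the filter and 1 to 4 on leaving out 1 library, and the 15 other genes became 7 without the filter, 5 with the block, 28 unadjusted and 5 to 17 on leaving out 1 library. The count of differences between the tissues went from 2 to 1 with the block (Apob, limma adjusted p = 0.0647). It went to 3 without liver CORT replicate 3 (Apoa4). Npc1l1 also passed with median-ratio scaling and with acinar genes removed. With the liver near 0 its difference restates the duodenum response, so it is not read as a difference between the tissues. The labels do not say whether Veh and CORT libraries of the same number share handling. Deviations of such libraries from their group means correlated at 0.05, 0.07 and -0.0039 in the duodenum and 0.04, -0.0084 and -0.12 in the liver. With 3 libraries per group, these values cannot show whether the numbers pair the samples. The duodenal call lost under the block was that of Apob (limma adjusted p = 0.0968).

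Directions turned only where the value was near 0 or rested on 1 library or scaling. Mogat2 in the duodenum ranged from -0.027 to 0.23 on leaving out 1 library (-0.010 without Veh replicate 2) and was -0.20 without Veh replicates 2 and 3. Liver Fabp1 ranged from -0.65 to 0.24, and the difference between the tissues for Fabp2 from -0.27 to 0.75. Between Veh organs, Dgat2 was -0.71 with median-ratio scaling and ranged from -0.062 to 0.19 on leaving out 1 library, and Fabp1 from -0.25 to 0.073 (0.037, 0.0041 and 0.072 among them). The log2 change of the ratio of Fabp1 to Fabp2 in the duodenum ranged from -0.24 to 0.035, and that of Dgat2 to Dgat1 in the liver from -0.15 to 0.071 (0.023 without Veh replicate 3). The cause of these shifts was not tested. Without read depth, the counting error of genes at low TPM is unknown.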
